A study of Rattus norvegicus with 38 samples.

Results

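The genes described here encode the constitutive proteasome, the regulatory particles that bind it and the chaperones that assemble it. They were chosen by name: a probeset belonged to the set when its only gene symbol was Psma, Psmb, Psmc, Psmd, Psme, Psmf or Psmg followed by a digit, with the interferon-inducible subunits Psmb8, Psmb9 and Psmb10 left out. On the heart arrays 43 of 15866 non-control probesets met this rule and stood for 40 of 10411 single-symbol genes, and on the blood arrays 57 of 31042 probesets stood for 43 of 14217 genes. Psmc3ip and Psme3ip1 matched by name but are not known subunits, which left 38 genes in hearts and 41 in blood. Psmb6, one of the catalytic subunits, and the activator Psme3 were measured only by probesets that carry several symbols, so they were not analysed here. Psmc6, Psmd12 and Psmd14 were on the blood array only.

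The proteasome is the barrel-shaped protease that degrades ubiquitin-tagged proteins in every nucleated cell. Its core is built of outer alpha rings (Psma genes) and inner beta rings (Psmb genes), and the proteolytic sites lie on Psmb5, Psmb6 and Psmb7. A cap made of a base, with its ring of ATPases (Psmc genes), and a lid (Psmd genes) binds, unfolds and feeds substrates to the core. Interferon gamma induces Psmb8, Psmb9 and Psmb10, which take the place of the catalytic subunits, as well as Psme1 and Psme2, whose products form 1 ring-shaped activator that caps the core in place of the ATPase cap. In cardiac muscle the same machinery removes damaged and surplus contractile proteins, and in leukocytes and graft cells it produces the peptides presented on class I molecules.

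Hearts of Dark Agouti (DA) rats were grafted into the abdomen of Brown Norway (BN) rats, which rejected them (allografts, n = 5), or of DA rats, which did not (isografts, n = 4). At day 6 the graft and the recipient's own native heart were taken, so the native hearts came from rejecting BN rats (n = 5) and non-rejecting DA rats (n = 4). All grafts were thus of DA origin, and hearts were sampled as ventricular cross-sections. The native hearts differed both in strain and in whether their host was rejecting a graft. Peripheral blood mononuclear cells (PBMC), isolated on a density gradient, came from the BN allograft recipients (n = 5), from 9 DA isograft recipients and from untransplanted BN and DA rats (n = 3 each). The labels give strain and graft and no age.

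Expression was read on 1-colour arrays as a signal without counts, so the number of arrays limits the precision. Each value below is the signal divided by the median signal of its array, which makes 1 the level of the median probeset, and a gene is its brightest probeset. A change is a log2 fold change from limma with its standard error (SE), and it was called when its p, after Benjamini-Hochberg adjustment over all probesets, was at most 0.10. Levels were compared only within a gene, because probesets of different genes bind with different strength. Hybridisation medians ran from 38.3 to 50.8 in hearts and from 20.2 to 36.8 in PBMC. The summed signal of 7 measured cardiomyocyte genes ranged from 93.0 to 243 array medians in allografts and from 453 to 806 in isografts, whereas 4 pan-leukocyte genes summed to 57.4–104 in allografts and 7.08–11.9 in isografts. In native hearts the cardiomyocyte genes summed to 621–972 in DA and 549–771 in BN, and the pan-leukocyte genes to 3.87–4.97 and 5.78–7.19. The 5 monocyte and macrophage genes summed to 40.9–70.1 in isografts and 16.9–22.9 in native DA hearts. The 4 fibroblast genes summed to 163–204 and 47.3–65.4 in these groups. In such bulk tissue fewer cells of a type and less RNA per cell cannot be told apart, and the part of these shifts in the results below was not tested. In PBMC the 7 measured cardiomyocyte genes lay below the array median in every sample, except Myl2 in isograft recipients, while the 5 T cell genes summed to 149–600.

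As a family the constitutive proteasome moved little in rejecting hearts. Between allografts and isografts 5 of the 38 genes were higher and 3 were lower, against a background of 22.5% of all single-symbol genes called higher and 23.2% called lower. The median change of the 38 was 0.01 on the log2 scale, and 34 of them lay within 0.5 of no change, compared with 4930 of all 10411 genes. Their median SE was 0.19, compared with 0.23 over all genes. The higher genes were Psme2, Psmf1, Psmd13, Psma4 and Psmd11, and the lower ones Psmc5, Psmc3 and Psmd10. By its brightest probeset none of the 38 reached the stricter rule of a 3-fold change in which 50% or more of a group also measured 1 array median or more, which 4.37% of all genes met upward and 5.68% downward. In 3 genes, Psme2, Psmd13 and Psmd11, the allografts lay wholly above the isografts and in 0 genes wholly below, where 17.5% and 17.7% of all genes did so. With quantile normalisation the count was 9 higher and 3 lower and the family median 0.14, and with signals as deposited it was 8 and 3 with a median of 0.09.

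**Figure D1:**
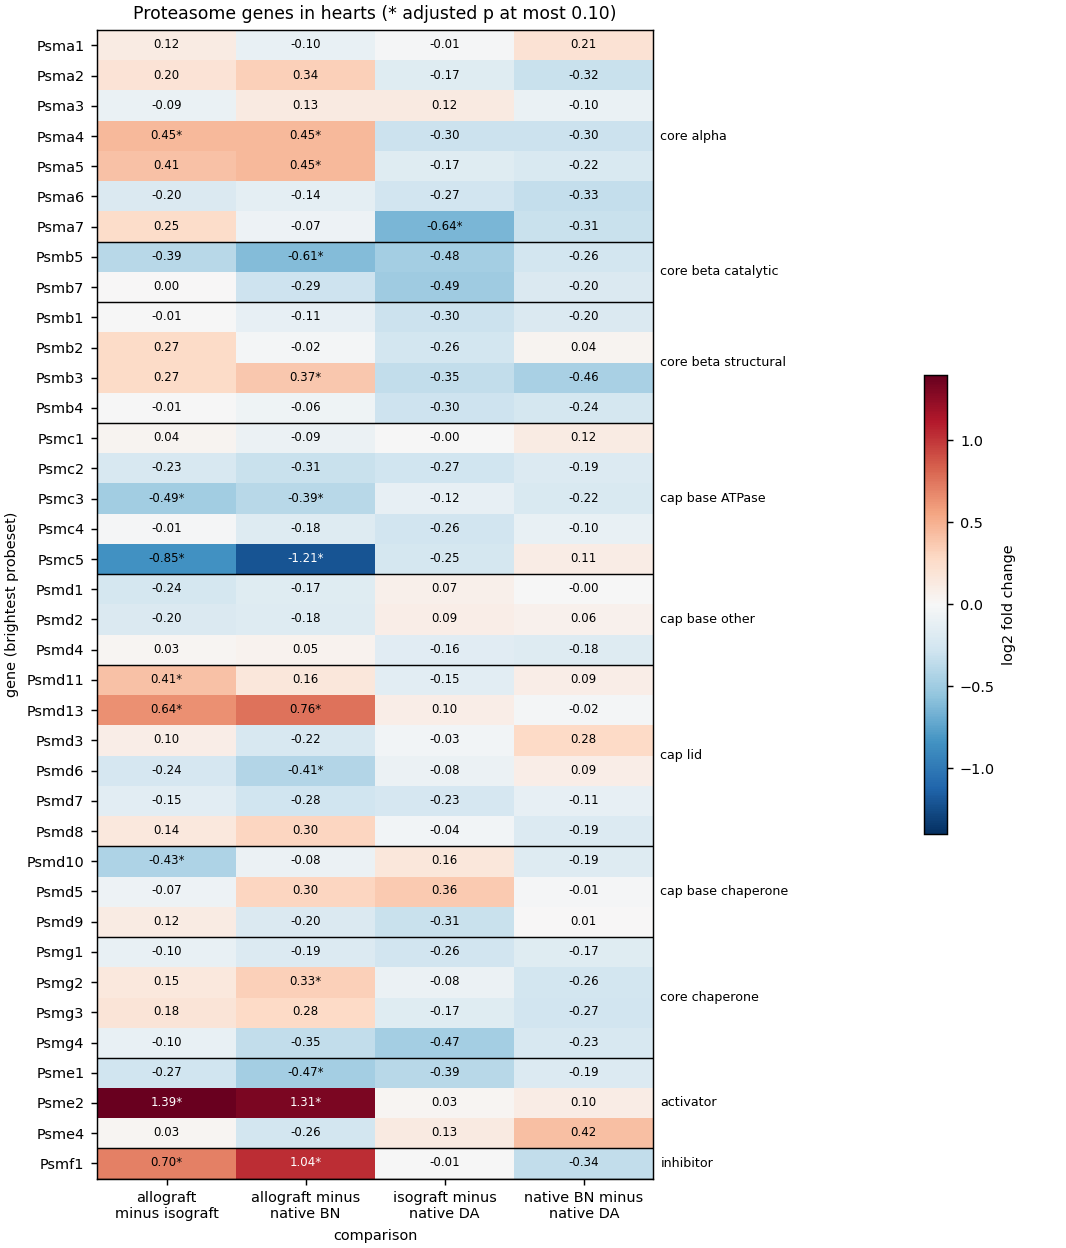
Log2 fold change of the 38 proteasome genes measured in hearts (rows, grouped by role) in 4 comparisons (columns), with an asterisk where the adjusted p was 0.10 or less. Most cells are pale, and Psme2 (1.39) and Psmf1 (0.70) against Psmc5 (-0.85) carry the strongest colours in the first column.

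The activator genes parted in rejecting hearts. Psme2, which encodes the beta subunit of the interferon-inducible ring, measured 27.9, 25.9, 10.3, 15.3 and 20.8 array medians in the allografts of recipients 3 to 7. In the isografts of recipients 9, 11, 12 and 13 it measured 9.26, 5.79, 6.00 and 8.33. All 5 allografts lay above all 4 isografts, a rise of 2.62-fold (log2 1.39, SE 0.25, adjusted p = 0.0003). Native hearts were at the isograft level, with 5.78–8.08 in DA and 6.74–8.79 in BN.

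Psme1, which encodes the alpha subunit of the same ring, did not follow. It measured 56.0, 54.6, 25.0, 36.0 and 36.5 array medians in the allografts and 61.7, 38.2, 39.9 and 57.3 in the isografts. These groups overlapped, and the change of -0.27 (SE 0.23) was not called (adjusted p = 0.408). Against the native BN hearts, at 51.2, 66.7, 42.5, 58.2 and 60.6, Psme1 was 1.39-fold lower in allografts (adjusted p = 0.0993), a call that was lost with quantile normalisation (adjusted p = 0.187) and without allograft 5 (adjusted p = 0.26).

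Both genes lie close together on rat chromosome 15 of the GRCr8 assembly, Psme1 at chr15:33038962-33041849 on the forward strand and Psme2 at chr15:33048452-33053055 on the reverse strand, with Emc9 between them. The 250 bases before the start of each are printed from RefSeq because these neighbours encode 1 complex and only Psme2 rose. Capitals mark matches, on either strand, to the core of the interferon-stimulated response element (GAAA and GAAA separated by any 2 bases), the gamma-activated site (TTCNNNGAA), the antioxidant response element (TGACNNNGC) or the CCAAT box. The Psme1 stretch covers chr15:33038721-33038970 and reaches into the annotated span of the gene at its end. The Psme2 stretch, chr15:33052752-33053001, lies wholly within the span, which starts from a longer transcript.
Psme1: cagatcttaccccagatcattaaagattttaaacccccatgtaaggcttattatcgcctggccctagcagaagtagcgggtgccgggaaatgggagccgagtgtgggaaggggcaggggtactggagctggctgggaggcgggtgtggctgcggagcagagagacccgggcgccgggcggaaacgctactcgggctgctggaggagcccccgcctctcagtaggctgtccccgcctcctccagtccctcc
Psme2: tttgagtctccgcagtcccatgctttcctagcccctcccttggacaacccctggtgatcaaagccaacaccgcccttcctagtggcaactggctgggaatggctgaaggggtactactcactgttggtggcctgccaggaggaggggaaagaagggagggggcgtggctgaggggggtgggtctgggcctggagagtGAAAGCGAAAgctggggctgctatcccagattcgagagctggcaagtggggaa
Psme2 held 1 match, GAAAGCGAAA, 53 to 44 bases before its start, and Psme1 held none of the 4 motifs in this window. The interferon motif core was present in 3.41% of 33469 RefSeq promoters of the same length and in 4 of the 37 proteasome genes with an entry, Psma4, Psmb3, Psmd7 and Psme2. Of these, Psme2 and Psma4 were higher in allografts than in isografts, and Psmb3 and Psmd7 were not called. Among the inducible subunits left out of the set, Psmb10 held the interferon core, whereas Psmb8 held only a gamma-activated site and a CCAAT box. Both Psmb8 and Psmb10 were higher in allografts. CCAAT boxes, the commonest of the 4, were found in 18 of the 37 genes and in 34.0% of all promoters. A match is a description of letters and not a bound site.

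Because Psme1 and Psme2 were read on the same arrays, the change of their ratio does not depend on the factor by which a whole array is scaled. Quantile normalisation is not such a factor, and the ratios were not tested with it. This comparison and those of Psmb8 over Psmb5 and Psmb10 over Psmb7 were chosen after the values had been seen, and 18 such tests were run. Set to 1 at the mean of native DA hearts, the Psme2 over Psme1 ratio was 4.46, 4.24, 3.68, 3.80 and 5.10 in the allografts and 1.34, 1.36, 1.34 and 1.30 in the isografts. It was 3.17-fold higher in allografts (exact two-sided permutation test, p = 0.00794, the smallest that 126 arrangements allow, adjusted p = 0.0179). All 4 isografts also lay above the 4 native DA hearts, at 0.872, 1.16, 0.899 and 1.10, by 1.33-fold (exact permutation p = 0.0286, adjusted p = 0.0468). This p took isografts and native DA hearts as separate animals, although each pair came from 1 rat, so it ignored the pairing. Native BN hearts spread from 1.08 to 1.42 and were 1.23-fold above native DA hearts, which did not pass (exact permutation p = 0.0952, adjusted p = 0.12).

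The third measured activator, Psme4, a large single-chain cap found mainly in nuclei, gave readings that depended on the probeset. Its brightest probeset measured 4.73, 5.45, 4.40, 3.86 and 6.42 in the allografts and 6.01, 4.29, 3.74 and 5.46 in the isografts, which overlapped (log2 0.03, SE 0.18, adjusted p = 0.918). A weaker probeset of Psme4 measured 1.36, 1.76, 1.38, 1.22 and 1.86 in the allografts against 5.30, 3.96, 3.97 and 5.59 in the isografts, a fall of 3.10-fold with no overlap (log2 -1.63, adjusted p = 5.13e-07). This was the only probeset of the family that met the stricter rule in this comparison. The other remaining probeset changed by -0.01. Which transcripts these probesets read was not analysed here, and the level of Psme4 in rejection stays unresolved between them.

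The inhibitor Psmf1, whose product binds the core and was named for blocking it in vitro, rose with rejection. It measured 8.45, 5.62, 3.59, 4.55 and 4.84 array medians in the allografts and 3.93, 2.56, 2.80 and 3.65 in the isografts. Only the allograft of recipient 5 fell inside the isograft range. The rise was 1.63-fold (log2 0.70, SE 0.22, adjusted p = 0.0166). Native BN hearts were lower, at 2.35, 3.11, 2.17, 2.46 and 2.62, and against them all 5 allografts were higher, by 2.05-fold (adjusted p = 0.000467). Native DA hearts, of the strain of the grafts, measured 3.16, 3.81, 3.19 and 2.72, a range that holds the allograft of recipient 5.

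**Figure D2:**
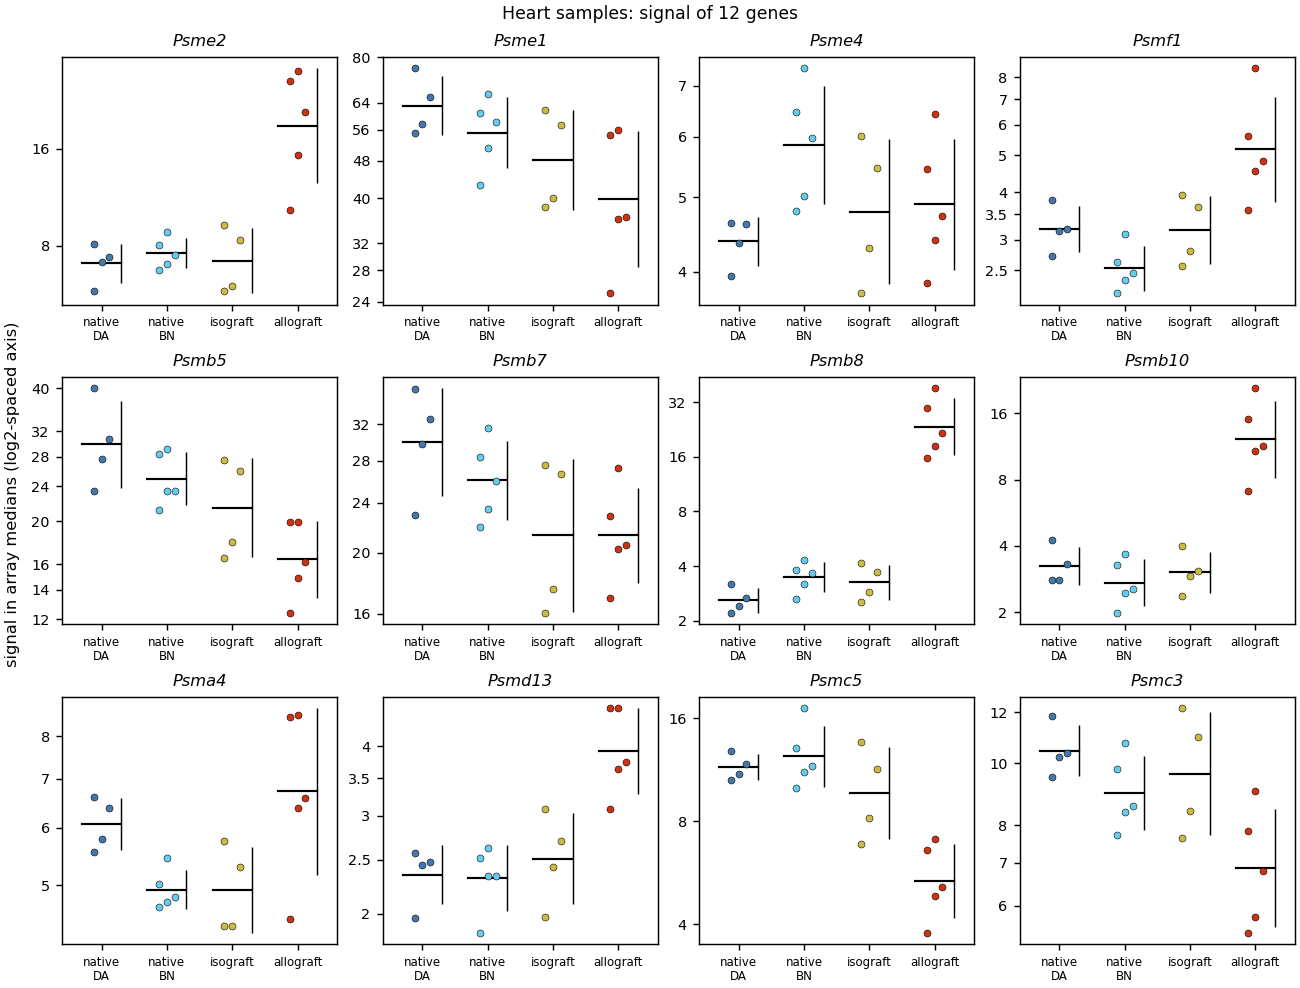
Signal in array medians (log2-spaced axis) of 12 genes in each heart sample, with 1 point per heart, a horizontal line at the geometric mean and a vertical bar of 1 SD on the log2 scale. Psme2, Psmb8 and Psmb10 stand apart in allografts, Psmf1 does so except for allograft 5 (3.59), and Psme1, Psmb5 and Psmb7 overlap between allografts and isografts.

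The catalytic subunits of the core did not rise where their inducible counterparts did. Psmb5, the chymotrypsin-like subunit, measured 19.9, 19.9, 12.4, 16.2 and 14.9 in the allografts and 27.6, 17.9, 16.5 and 26 in the isografts. The groups overlapped, and the change of -0.39 (SE 0.21) was not called (adjusted p = 0.163). Against native BN hearts, at 23.5, 29.2, 21.2, 23.5 and 28.5, Psmb5 fell by 0.61 on the log2 scale (adjusted p = 0.0179), with no overlap. Psmb7, the trypsin-like subunit, measured 22.9, 27.2, 16.9, 20.3 and 20.6 in the allografts and 26.7, 16, 17.5 and 27.5 in the isografts, a change of 0.00 (SE 0.20).

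The inducible subunits were measured on the same arrays. Psmb8, which takes the place of Psmb5, was 7.20-fold higher in allografts (15.8–38.2 array medians) than in isografts (2.54–4.16; adjusted p = 1.58e-07). Psmb9, the counterpart of Psmb6, was 4.98-fold higher (adjusted p = 7.99e-07) and Psmb10, the counterpart of Psmb7, 4.03-fold higher (adjusted p = 1.78e-05). Within arrays, Psmb8 over Psmb5 was 9.43-fold and Psmb10 over Psmb7 4.03-fold higher in allografts than in isografts, each without overlap (exact permutation p = 0.00794, adjusted p = 0.0179 for both). The Psmb8 over Psmb5 ratio was also 1.75-fold higher in isografts than in native DA hearts, with all 4 isografts above all 4 native hearts. Its exact permutation p of 0.0286 (adjusted p = 0.0468) again ignored the pairing by rat. Native BN hearts, however, spread over and past the isograft range, from 1.03 to 2.13 of the native DA mean against 1.63 to 2.01, and exceeded those of DA by 1.60-fold (exact permutation p = 0.0397, adjusted p = 0.0595). For Psmb10 over Psmb7 the step from native DA hearts to isografts was 1.32-fold and did not pass (exact permutation without pairing, p = 0.0857, adjusted p = 0.119).

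In the outer ring of the core, 1 of 7 alpha genes was called. Psma4 measured 8.51, 8.56, 4.50, 6.38 and 6.59 in the allografts and 5.75, 4.40, 4.40 and 5.29 in the isografts, a rise of 1.37-fold (adjusted p = 0.0519). Recipient 5 held the low allograft value, at the level of the isografts. Psma5 measured 17.9, 15.7, 10.6, 13.7 and 13.1 against 14.8, 8.09, 8.40 and 12.4, a change of 0.41 (SE 0.21) that was not called (adjusted p = 0.146). None of the 4 structural beta genes was called, and their changes ran from -0.01 to 0.27. Across the 13 core genes the median was 0.12, with values between -0.39 and 0.45.

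In the base of the cap 2 of 5 ATPase genes were lower and 0 higher, where 23.2% and 22.5% of all genes were called. Psmc5 measured 6.58, 7.09, 3.78, 5.16 and 4.86 in the allografts and 13.7, 6.88, 8.16 and 11.4 in the isografts. Only isograft 11 fell among the allografts, and the decrease was 1.80-fold (log2 -0.85, SE 0.23, adjusted p = 0.00658). Psmc3 measured 9.07, 6.79, 5.44, 7.83 and 5.77 against 12.2, 8.42, 7.64 and 11, a 1.40-fold decrease with some overlap (adjusted p = 0.0433). The other ATPases, Psmc1, Psmc2 and Psmc4, changed by 0.04, -0.23 and -0.01 without a call.

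Lid genes gave 2 higher and 0 lower calls among 6, and a difference between base and lid was not tested. Psmd13, a lid subunit, measured 4.69, 4.69, 3.09, 3.74 and 3.64 in the allografts and 3.08, 2.70, 1.98 and 2.42 in the isografts. The allografts lay above the isografts by 1.56-fold (log2 0.64, SE 0.17, adjusted p = 0.00656), though the nearest samples of the groups were almost equal. Psmd11, another lid subunit, measured 12.9, 13.5, 10.7, 11.6 and 10.6 against 10.2, 8.58, 7.39 and 9.61, a 1.33-fold rise (adjusted p = 0.0358). A weaker Psmd11 probeset changed by -0.22 (adjusted p = 0.33), and the mean of both probesets was not called (0.09, adjusted p = 0.648). The 3 non-ATPase base genes, Psmd1, Psmd2 and Psmd4, had values from -0.24 to 0.03 and no call.

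Assembly chaperones of the cap and core were called once among 7. Psmd10, a chaperone of the base also known as the oncoprotein gankyrin, measured 3.31, 3.27, 2.70, 2.47 and 2.86 in the allografts and 4.68, 3.02, 3.28 and 5.08 in the isografts. Isografts 9 and 13 stood clear of all allografts and isografts 11 and 12 did not. Its decrease was 1.35-fold (adjusted p = 0.0884). Without allograft 5, isograft 9 or isograft 13, only 1 gene of the family was called lower in place of 3, and without isograft 12 only 3 were called higher in place of 5.

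The same allografts can also be set against the native hearts of their own BN hosts, a comparison that includes strain and surgery. Here 7 of the 38 genes were higher and 5 lower, with 26.1% and 27.7% of all genes called, and 3 and 2 of them did not overlap, with 18.5% and 18.7% of all genes doing so. Signals as deposited gave 11 and 5 (28.9% and 25.1% of all genes), and quantile normalisation 10 and 4 (27.7% and 27.4%). Psme2 (1.31), Psmf1 (1.04), Psmd13 (0.76), Psma4 (0.45), Psma5 (0.45), Psmb3 (0.37) and Psmg2 (0.33) were higher. Psmc5 (-1.21, adjusted p = 0.000173), Psmb5 (-0.61), Psme1 (-0.47), Psmd6 (-0.41) and Psmc3 (-0.39) were lower. In place of 7, 4 were higher without allograft 3 or native BN heart 5, and in place of 5, 2 were lower without allograft 5, native BN heart 4 or native BN heart 7. Its allografts were those of the previous comparison.

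Surgery alone, read as isografts against native DA hearts, left the family nearly without calls. None of the 38 genes was higher and 1 was lower, where 7.57% and 7.12% of all genes were called. At an unadjusted p under 0.05, 3 genes passed. The median change was -0.17, compared with -0.08 over all genes, and 30 of the 38 genes had negative values. The gene called was Psma7, an alpha subunit, with 16.8, 11.1, 12 and 18.6 array medians in the isografts and 21.4, 21.8, 22.5 and 23.2 in the native DA hearts. The groups did not overlap, as in 8.53% of all genes in this direction, and none of the 38 lay wholly higher, where 9.42% of all genes did. The fall was 1.55-fold (adjusted p = 0.0994). It was no longer called with the recipient as a block (adjusted p = 0.112) or without isograft 11 or 12 or any 1 of the 4 native DA hearts (adjusted p = 0.145 to 0.236). Psmb5 (-0.48, adjusted p = 0.188), Psmb7 (-0.49, adjusted p = 0.162), Psme1 (-0.39), Psme2 (0.03), Psme4 (0.13) and Psmf1 (-0.01) were not called.

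Between the native hearts of BN and DA hosts 0 of 38 genes were called by limma in either direction, with 1.32% and 1.39% of all genes called, and 2 had an unadjusted p under 0.05. The family median was -0.18, and 27 of the 38 values were negative. Psme4 lay wholly higher in BN, at 5.02, 6.47, 7.38, 4.80 and 5.98 against 4.62, 4.36, 3.95 and 4.63 (log2 0.42, adjusted p = 0.32). Psma4 and Psma7 lay wholly lower in BN, with changes of -0.30 and -0.31. Groups that did not overlap made up 2.85% of all genes upward and 3.74% downward. Psmb5 (-0.26), Psmb7 (-0.20), Psme1 (-0.19), Psme2 (0.10) and Psmf1 (-0.34) overlapped between strains.

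Whether a graft differed from its host's native heart by more in the allogeneic than in the isogeneic transplants was tested as an interaction. The difference was higher for 5 genes and lower for 1, with 16.4% and 16.7% of all genes called. Psme2 (1.28, adjusted p = 0.0137) and Psmf1 (1.04, adjusted p = 0.0189) led, followed by Psma4 (0.75), Psmb3 (0.72) and Psmd13 (0.66). This difference also holds that between the native hearts: Psmb3 changed by 0.27 from isograft to allograft, without a call, and by -0.46 from native DA to native BN hearts. For Psma4 these values were 0.45 and -0.30, and for Psmf1 0.70 and -0.34. Psmc5 was the gene called in the other direction (-0.96, adjusted p = 0.038). Psmb5 (-0.13), Psmb7 (0.20), Psme1 (-0.08) and Psme4 (-0.39) were not called. Without isograft 12 the count higher fell to 3, and without allograft 5 it was 8.

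Single hearts differed in the level of the whole family. After each gene was centred over the 18 hearts, the mean of the 38 genes was 0.25 and 0.12 in isografts 9 and 13 but -0.32 and -0.30 in isografts 11 and 12. In the allografts of recipients 3 to 7 it was 0.23, 0.20, -0.39, -0.04 and -0.07. The spread within each graft group (SD 0.29 in isografts and 0.25 in allografts) thus exceeded the difference between their means of -0.06 and -0.01. The array median moved with this level: it was 38.8 and 39.9 on the arrays of isografts 9 and 13, 47.0 and 45.9 on those of isografts 11 and 12, and 50.8 on that of allograft 5, the highest of the 18. Because the level is a signal divided by that same median, part of this relation holds by construction. Without division by the median, the family mean ran from -0.21 to 0.09 in isografts and from -0.16 to 0.19 in allografts.

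**Figure D3:**
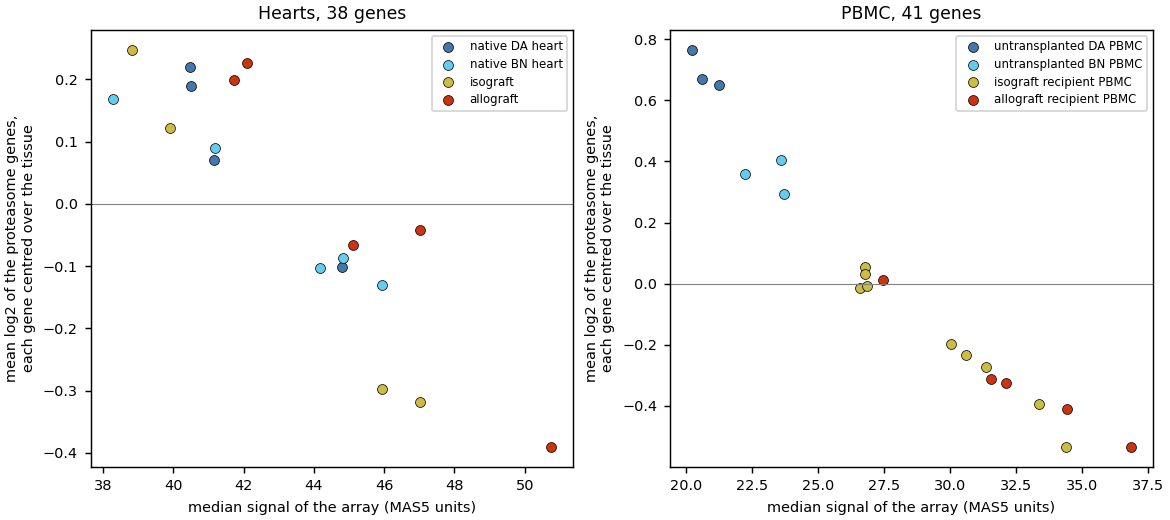
Mean log2 level of the proteasome genes, each gene centred over its tissue (vertical axis), against the median signal of the array (horizontal axis), with 1 point per sample coloured by group. Samples with a high array median, such as allograft 5 at 50.8, sit low in both panels, and within PBMC the 6 untransplanted rats lie at the upper left. The levels were divided by the array median, so part of this pattern holds by construction.

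In PBMC of untransplanted rats the family was lower in BN than in DA, by a margin that depended on scaling. Of 41 genes, 40 had negative values and the median was -0.37, compared with -0.11 over all 14217 genes. Quantile normalisation gave a median of -0.12 with 33 genes below 0 (all genes -0.00), and signals as deposited gave -0.21 with 35 below 0 while the median of all genes turned to 0.06. By limma 0 genes were called higher and 2 lower, where 4.4% and 5.47% of all genes were called, and 15 had an unadjusted p under 0.05. The 3 BN rats lay wholly below the 3 DA rats in 32 of the 41 genes and wholly above them in 0, while 24.8% and 10.8% of all genes did so. The array median was 22.2–23.7 in BN and 20.2–21.2 in DA, and the T cell genes summed to 351–396 array medians in BN and 577–600 in DA. The B cell genes lay the other way, at 145–191 in BN and 115–149 in DA, and platelet genes at 188–301 and 298–414. Their part in the difference was not tested.

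Psmg2, a chaperone that pairs alpha subunits during core assembly, gave the smallest adjusted p between strains. It measured 6.29, 6.42 and 7.48 array medians in BN and 10.2, 11.5 and 12.4 in DA, with no overlap, a 1.69-fold decrease (log2 -0.75, SE 0.19, adjusted p = 0.0254). Psmd14, the deubiquitinase of the lid, measured 19.5, 22.1 and 21.4 in BN and 31.6, 27.8 and 30.9 in DA, a 1.43-fold decrease (adjusted p = 0.0789). Its call was lost when any 1 of the 6 rats was left out, and 2 weaker probesets of Psmd14 changed by 0.04 and -0.35. Psmc6, an ATPase, was not called by its brightest probeset (-0.12) but was lower by 2 others (-0.66, adjusted p = 0.0442, and -0.70, adjusted p = 0.032).

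The activators in PBMC showed no rise of Psme2 over Psme1 between untransplanted strains. Psme1 measured 102, 121 and 106 in BN and 172, 155 and 151 in DA (log2 -0.54, SE 0.20, adjusted p = 0.148). Psme2 measured 48.0, 56.0 and 49.1 in BN and 81.0, 74.8 and 66 in DA (log2 -0.53, SE 0.27, adjusted p = 0.314). Neither gene overlapped between strains and neither passed. Their ratio differed by 1.00-fold (exact permutation p = 1, in a design whose smallest p is 0.1). Psmb5 (-0.45, adjusted p = 0.167), Psmb7 (-0.41), Psme4 (-0.12) and Psmf1 (-0.48, adjusted p = 0.206) were not called, nor were Psmb8 (-0.00), Psmb9 (-0.50) and Psmb10 (-0.43).

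**Figure D4:**
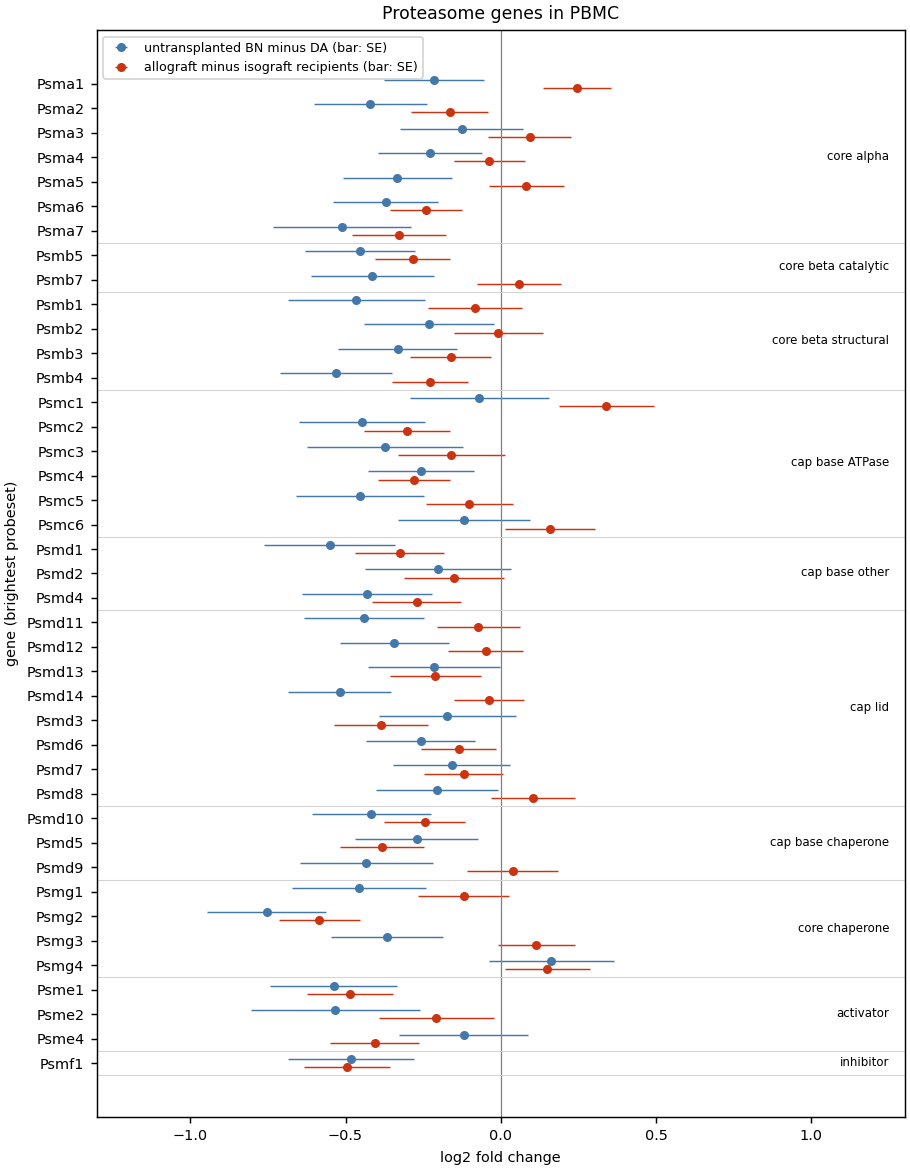
Log2 fold change with its SE for the 41 proteasome genes measured in PBMC, grouped by role, for untransplanted BN minus DA rats (blue) and allograft minus isograft recipients (red). Blue points lie left of 0 for 40 genes, and red points spread around a median of -0.15.

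Between BN allograft recipients and DA isograft recipients, which differ in strain and in rejection, 0 genes were higher and 5 lower, with 7.72% and 15.2% of all genes called. The median of the 41 was -0.15 against -0.06 for all genes, and 0 genes were without overlap in either direction, where 3.04% and 4.04% of all genes were. Quantile normalisation turned the split to 7 higher and 3 lower (13.8% and 13.4% of all genes) with a median of 0.02. Signals as deposited turned it to 6 and 4 (14.1% and 12.3% of all genes) with a median of -0.02, while the median of all genes moved to 0.07. No direction of the family as a whole held under all 3 scalings. Without allograft recipient 3 the lower count was 12, where 18.1% of all genes were called lower. With a filter on dim probesets 2 genes were higher and 11 lower, where 12.1% and 27.3% of the genes kept were called. The summed T cell genes were at 149–254 array medians in allograft recipients and 221–381 in isograft recipients, B cell genes at 46.8–84.9 and 23.9–49.3, platelet genes at 145–209 and 221–291, and red cell genes at 145–217 and 204–445. The part of these shifts was not tested.

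Of the 5 genes, Psmg2 again had the smallest adjusted p. It measured 6.43, 5.20, 4.58, 4.71 and 4.13 in the allograft recipients 3 to 7, and in the 9 isograft recipients the lowest, median and highest values were 5.88, 7.38 and 9.19. Only recipient 3 reached the isograft range, and the decrease was 1.50-fold (log2 -0.58, SE 0.13, adjusted p = 0.0055). Psmf1 measured 14.8, 13.6, 13.4, 13.1 and 10.6 against 13.7, 19.2 and 25.3, a 1.41-fold decrease (adjusted p = 0.0228). Between untransplanted BN and DA rats its change was -0.48, which left -0.02 beyond strain.

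Psme1 measured 60.3, 55.0, 55.4, 56.9 and 50.4 in the allograft recipients, within a narrow band, and 50.9, 79.0 and 97.1 as the lowest, median and highest in isograft recipients. The decrease was 1.40-fold (adjusted p = 0.0261) and was lost with quantile normalisation (adjusted p = 0.114) and with the mean of its probesets (adjusted p = 0.183). Psme4 (-0.41, adjusted p = 0.0683) and Psmd5, a chaperone of the base (-0.38, adjusted p = 0.0696), were also lower, and Psme4 lost its call with quantile normalisation and with signals as deposited. Psme4 was also not called without allograft recipient 6 or 7 or isograft recipient 18 or 21, nor Psmd5 without any 1 of 8 recipients, among them allograft recipients 5, 6 and 7. Psme2 measured 53.7, 33.9, 28.9, 33.6 and 27.7 against 25.7, 39.3 and 63.0 and was not called (-0.21, adjusted p = 0.532). The Psme2 over Psme1 ratio was 1.21-fold higher in allograft recipients (exact permutation p = 0.023, adjusted p = 0.046), with overlap.

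Psmb5 measured 26.3, 26, 27.5, 24.2 and 23.8 in the allograft recipients and 24.4, 31.4 and 44.1 as the lowest, median and highest in isograft recipients, without a call (-0.28, adjusted p = 0.141). Psmb7 was not called either (0.06, adjusted p = 0.837). Psmb8 over Psmb5 was 1.37-fold higher in BN allograft recipients than in DA isograft recipients (exact permutation p = 0.0025, adjusted p = 0.0179). It was 1.37-fold higher in untransplanted BN than DA rats too, with the groups apart (exact permutation p = 0.1, which this design cannot go below). Psmb10 over Psmb7 was 1.29-fold lower in allograft recipients: all 5 allograft recipients, at 0.774 to 0.921 of the untransplanted DA mean, lay below all 9 isograft recipients, at 1.05 to 1.39 (exact permutation p = 0.0005, adjusted p = 0.00899). Between untransplanted strains that ratio changed by -0.01 on the log2 scale (exact permutation p = 0.9). Whether the strain differences of untransplanted rats and of recipients differ in these ratios was not tested.

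**Figure D5:**
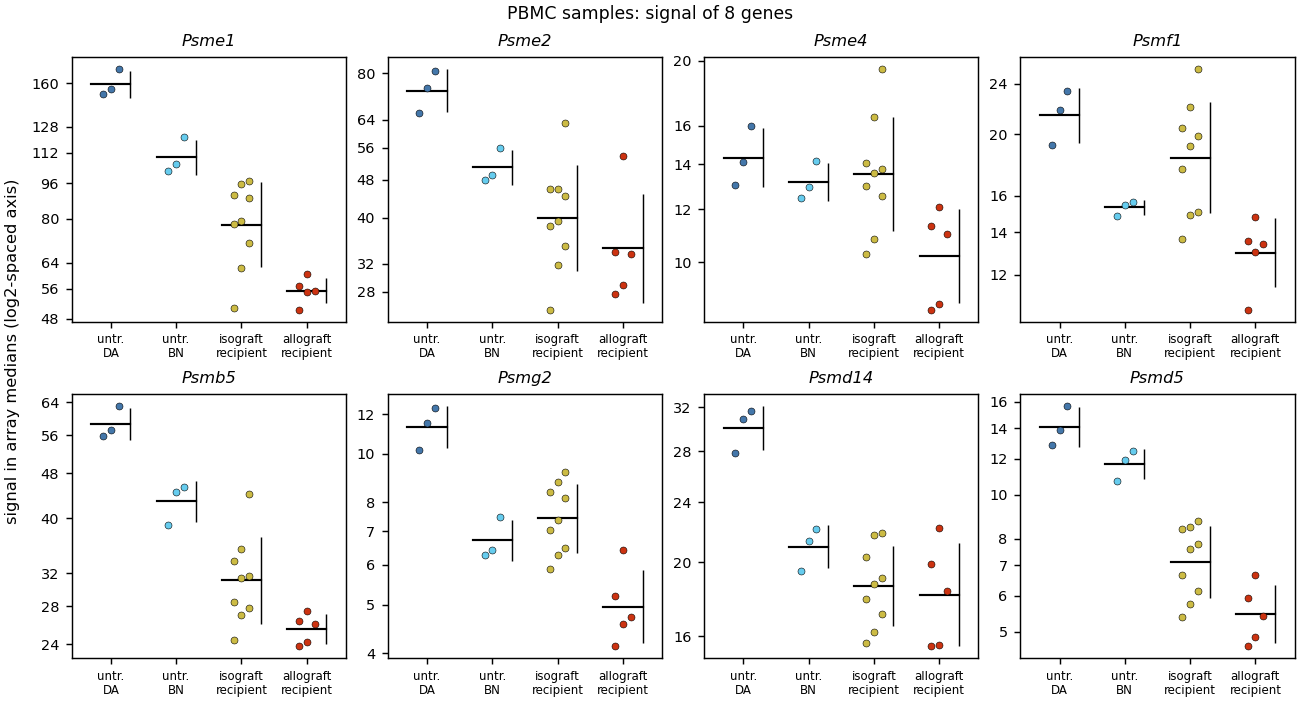
Signal in array medians (log2-spaced axis) of 8 genes in each PBMC sample, with 1 point per rat, a horizontal line at the geometric mean and a vertical bar of 1 SD on the log2 scale. For Psmg2 and Psmf1 the BN groups lie below the DA groups among untransplanted rats and, with some overlap, among recipients.

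Subtracting the strain difference of untransplanted rats from that of recipients left 0 genes called in either direction by limma, with 0.176% and 0.134% of all genes called and 3 of the 41 at an unadjusted p under 0.05. The median was 0.21, compared with 0.01 over all genes, and 35 values were positive, including all 13 core genes. With quantile normalisation the median was 0.15 and with signals as deposited 0.18. Psmb5 (0.17), Psmb7 (0.47), Psme1 (0.05), Psme2 (0.33), Psme4 (-0.29) and Psmf1 (-0.02) had standard errors between 0.21 and 0.33.

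Recipients and untransplanted rats were processed in separate batches, so a difference between them cannot be told apart from the batch and was not tested. Untransplanted DA rats lay wholly above the DA recipients in 35 of 41 genes, where 31.8% of all genes did, and untransplanted BN rats above the BN recipients in 32 of 41, where 35.8% did. The array medians were 20.2–23.7 in untransplanted rats and 26.6–36.8 in recipients.

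Genes that work with the proteasome but carry other names were read from lists. In allografts against isografts, where 22.5% of all genes were called higher and 23.2% lower, 1 of 7 associated proteins was higher (Sem1, a small lid component, 0.39) and 1 lower (Ecpas, an adaptor of the proteasome, -0.96). Among 6 ubiquitin and ubiquitin-activating or -conjugating genes 1 was lower (Ube2d1, a conjugating enzyme, -1.90), and among 11 shuttle and segregase genes 4 were lower and 0 higher, among them Ufd1 (-0.78), Ubqln2 (-0.70) and Faf1 (-0.66). Nfe2l1, the transcription factor that raises proteasome genes when proteasome activity is low, was 4.13-fold lower in allografts (adjusted p = 1.37e-07). It was also lower in native BN than native DA hearts (-1.45, adjusted p = 0.000227), in untransplanted BN PBMC (-1.12) and in allograft recipient PBMC (-0.53). The interaction for Nfe2l1, which sets the difference between grafts against that between native hearts, was -0.60 (SE 0.24, limma adjusted p = 0.0896). Both graft groups were of DA origin, while the native hearts differed in strain and in the rejection of their hosts. Against native BN hearts the largest called changes of its list were Nfya (0.78), Nfyc (-0.59) and Nfe2l2 (0.54), and Nfe2l1 was not among them. In that transcription list Stat3 (0.66) and Nfe2l2 (0.40) were higher in allografts, and the list gave 2 higher and 2 lower of 8.

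Larger changes were measured among genes that act before or above the proteasome. Of 8 ubiquitin ligases of muscle, 6 were lower in allografts and 1 higher, where 23.2% and 22.5% of all genes were called, led by Trim63 (-3.06), Trim54 (-1.99) and Fbxo32 (-1.71), which tag contractile and other muscle proteins. The cardiomyocyte genes were lower over the same samples, as given above. All 7 measured genes of the interferon gamma signal were higher in allografts (22.5% of all genes), among them Irf1 (2.05), Ifng (1.84) and Irf8 (1.79). Between isografts and native DA hearts 7.57% of all genes were called higher and 7.12% lower. Of the lists, Uba6 (0.81), Ubqln2 (0.93), Cbl (0.82), Nedd4 (0.69), Jak2 (1.12) and Irf8 (0.77) were higher and 0 genes lower.

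Allografts against native BN hearts had, among the genes of the lists, Trim63 (-3.49), Fbxo32 (-2.73), Trim54 (-2.45), Ube2d1 (-2.06), Ufd1 (-1.03), Faf1 (-1.03), Ecpas (-0.97), Nfyc (-0.59) and Txnl1 (-0.40) lower. Irf8 (2.21), Irf1 (1.87), Ifngr1 (1.47), Uba1 (0.80), Nfya (0.78), Ddi2 (0.65), Uba6 (0.62) and Nfe2l2 (0.54) were higher. The transcription list gave 2 higher and 3 lower of 8 here, where 26.1% and 27.7% of all genes were called. In untransplanted PBMC, Trim54 (-3.94, SE 1.00, with every PBMC signal below its array median), Stub1 (-0.76) and Usp14, a deubiquitinase on the cap (-0.51), were lower in BN, and Mafg (1.03) and Ciita (1.02) were higher. Ciita was higher in allograft recipients too (1.19), with Ifngr2 (0.71), whereas Stat3 (-1.49), Nedd4 (-0.70), Jak1 (-0.61), Ubqln4 (-0.59), Fbxo30 (-0.57), Faf1 (-0.52), Uba6 (-0.49), Nfyb (-0.48), Adrm1, the ubiquitin receptor of the cap (-0.44), and Ubqln1 (-0.37) were lower.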

How the data were processed

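Signals had been computed by the authors with the MAS5 method, version not given in the sources used here, as a linear intensity per probeset, scaled to a common trimmed mean per array (about 100 when recalculated). The deposited intensity values of 18 heart arrays (RAE230A) and 20 PBMC arrays (RAE230 2.0) were divided by each array's median over non-control probesets and taken to log2. Depth is unknown for arrays, and no array was identical to another. Group labels came from titles, sources and, for untransplanted rats, the strain given as a characteristic. Genes were named from the platform annotation, and all 43 and 57 probesets matched the GRCr8 gene table by identifier. Replicates are separate rats.

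Per tissue, limma 3.58.1 in R 4.3.3 fitted 4 group means and moderated the variance. p-values were Benjamini-Hochberg adjusted over 15866 or 31042 probesets, with calls at 0.1 or less. A stricter rule also asked for a fold of 3 and, in 50% of either group, a signal not under that of the median probeset. Named genes were the catalytic subunits, activators and inhibitor, up to 8 called genes per direction, and up to 3 per list. Members and lists were chosen with earlier results of these data known. Alternatives covered scaling, pseudocount, a filter on dim probesets, the mean of a gene's probesets, unmoderated variance, only the groups compared, leaving out each replicate, and a block. Native and graft hearts with 1 recipient number came from the same rat, by title. Their deviations correlated between -0.05 and 0.12. Ratio tests were exact permutation tests adjusted over 18, and they ignored that grafts and native hearts shared recipients. Promoters came from RefSeq (37 of 41 genes had an entry).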

Additional observations from a re-analysis of the deposited data

Results flagged for a closer look

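For 6 genes the graft differed from the native heart by an amount that was not the same in allogeneic and isogeneic transplants, by the interaction term of limma (n = 5 and 4 recipients). Of all genes 16.4% were called higher and 16.7% lower by this term. The difference of log2 changes was 1.28 (SE 0.35) for Psme2, 1.04 (SE 0.30) for Psmf1, 0.75 (SE 0.24) for Psma4, 0.72 (SE 0.25) for Psmb3, 0.66 (SE 0.24) for Psmd13 and -0.96 (SE 0.32) for Psmc5.

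In 3 of 110 groups of samples examined for 19 genes, 1 sample stood far from the rest, where chance alone marks about 1 group in 20. Psma5 was highest in the PBMC of allograft recipient 3, at 28.1 array medians with the next at 20.4. Psmc3 was highest in the same sample, at 19.3 with the next at 11.4. Psma7 was lowest in isograft recipient 17, at 21.8 with the next at 34.5. The array median of recipient 3 was 27.4, the lowest of the allograft recipients, and that of recipient 17 was 34.4, the highest of the isograft recipients.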

How the results depend on the processing

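Counts of calls moved with several settings. In allografts against isografts, quantile normalisation gave 9 higher, deposited signals 8, and a fit of only the 2 groups 1 lower. The surgical count of 1 lower became 0 with the recipient as a fixed block (6.49%) or only the 2 groups (3.97%). It became 2 with quantile normalisation (8.55%) and with deposited signals (7.65%). Against native BN hearts, deposited signals gave 11 higher (28.9%) and only the 2 groups 3 lower (26.9%). The interaction gave 8 higher with quantile normalisation (18.4%) and 2 lower with the mean of probesets (16.7%). For the PBMC strain effect, lower calls were 6 with a filter on dim probesets (10.8% of the genes kept) and 1 with only the 2 groups (3.39%). For strain plus rejection, higher calls were 1 without moderation, 2 with the filter, 7 with quantile normalisation and 6 with deposited signals, and lower calls 8, 11, 3 (quantile normalisation) and 3 (only the 2 groups). The filter fits fewer probesets, and for the rest the cause was not tested. Psme4 turned from 0.03 to -0.54 between allografts and isografts with the mean of probesets, which includes its discordant probeset.

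Leaving out each replicate gave 3 to 6 higher and 1 to 4 lower for allografts against isografts, 0 to 1 lower for surgery, 4 to 8 higher and 2 to 5 lower against native BN hearts, and 3 to 8 higher for the interaction. In PBMC it gave 1 lower for strain (2 with all rats). For strain plus rejection it gave 0 to 1 higher (1 without isograft recipient 20) and 3 to 12 lower (12 without allograft recipient 3, and 3 without allograft recipients 6 or 7 or isograft recipient 21). Fits with 2 rats in an arm borrowed their spread from all groups.

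The number shared by untransplanted BN and DA rats pairs no animals (correlations 0.00 to 0.04), and as a replicate block it left 1 of 2 strain calls. The recipient block changed no other count by over 1.5 times. Of the single-gene values under alternatives other than leaving out a replicate, 542 kept their side of the threshold, 23 lost the call and 9 gained one. In 1 the sign reversed with a call in at least 1 of the 2 fits. A change of sign without a call in either fit was counted among the 542.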
